A study of Bos taurus with 12 samples.

Results

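Among the cytosines deposited for a comparison of cow blood, 334 of 216,990 had intermediate methylation in every fertile cow and high methylation in every subfertile cow. A site was taken when it lay on an autosome and had a value in all 12 cows. The fertile cows had to average 30 to 60% methylated with every fertile value from 15 to 75%, every subfertile value had to reach 75%, and sites with all subfertile values at 100% were left out. The 334 sites were 0.192% of the 174,010 autosomal sites with 12 values. The rule turned the other way, intermediate in subfertile and high in fertile cows, took 79 sites.

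Blood came from 6 subfertile and 6 fertile dairy cows of the same farm, kept alike and aged 3 to 8 years. The subfertile cows were culled within the following year for reproductive complications that were unknown at sampling. The fertile cows were still in the herd a year later and had no fertility problem. The labels name no treatment, and the cows are numbered here 1 to 6 within each group only to name them. In the deposited table the subfertile cows carry the letter F and the fertile cows the letter R. The meaning of F and R is not explained, and the sample labels were followed here. Should F stand for fertile, all directions reported would reverse.

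In mammalian DNA, methylation is found mostly on cytosines that stand before a guanine (CpG), and most such cytosines outside active promoters and enhancers are methylated on nearly every molecule. The percent at a site is the share of sequenced molecules read as methylated in DNA of whole blood. It averages over all nucleated blood cells and over both copies of a chromosome, so a mixture of cells and a mixture of copies cannot be told apart in these values. Intermediate methylation is known from imprinted genes, where 1 parental copy is methylated, from regions that differ between blood cell types, and from sites where the copies differ in sequence. Enzymatic conversion reads methylated and hydroxymethylated cytosines alike.

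Because the group levels chose the sites, they are given as a description, with no test. Over the 334 sites, the mean level of a subfertile cow ran from 89.0 through a median of 89.3 to 90.5%, and that of a fertile cow from 48.7 through 50.3 to 51.4%. These means were 89.5 ± 0.522% in subfertile cows and 50.3 ± 0.987% in fertile cows (SD, n = 6 each), so cows of the same group lay close together once averaged over sites. At single sites they did not: the median SD between cows was 6.90 percentage points in subfertile and 13.3 in fertile cows. The range between the lowest and the highest cow had a median of 17.9 points in subfertile and 34.3 points in fertile cows. Of 2,004 subfertile values, 528 (26.3%) were exactly 100%, and 248 of the 334 sites had at least 1 such value. At 130 sites (38.9%) all fertile cows lay from 30 to 70%.

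**Figure D1:**
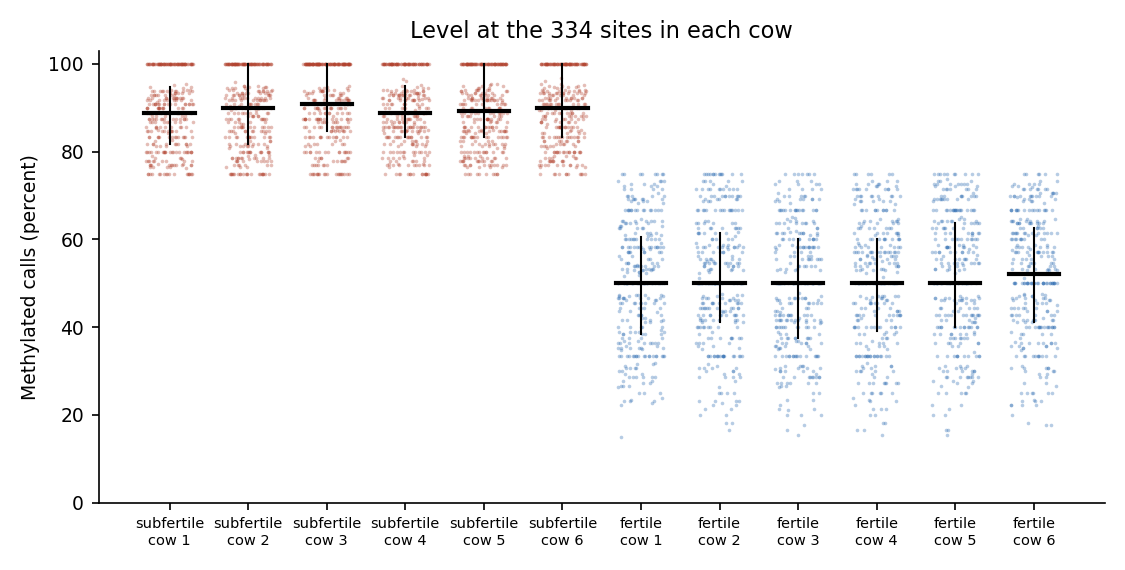
Percent methylated (vertical axis) at each of the 334 sites in each cow, subfertile cows on the left and fertile cows on the right; points are sites, thick bars medians and thin bars the middle 50% of sites. The cow medians sit from 88.9 to 90.9% in subfertile and from 50 to 52.1% in fertile cows, and the edges at 75% come from the selection.

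The groups did not overlap at 324 of the 334 sites, against 1.72% of all autosomal sites with 12 values that separated in this direction. The rule nearly fixes that count, and nothing is read from it. At the other 10 sites the lowest subfertile and the highest fertile cow both stood at 75%. The gap between the lowest subfertile and the highest fertile cow had a median of 11.1 points, reached 20 points at 81 sites and was widest, 44.6 points, at a site in PDZRN3. Near the upper bound on the fertile mean, 96 sites inside (55 to 60%) had median levels of 88.3% in subfertile and 57.3% in fertile cows. Just outside, 60 sites with a fertile mean over 60 and up to 65% had 90.2% and 62.2%. At the lower bound on the subfertile values, 180 sites had their lowest subfertile cow from 75 to under 80%, with median levels of 87.2% in subfertile and 51.0% in fertile cows. Another 198 sites with their lowest subfertile cow from 70 to under 75% missed the rule, with 84.5% and 50.9%. The bounds thus cut through a continuous spread of levels.

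In the authors' deposited table, the 334 sites had differences (subfertile minus fertile) of 26 to 62.6 points with a median of 37.4, and a median q-value of 7.53e-05. Limma, fitted over all 216,990 sites on a log ratio of methylated to unmethylated percent, called 0 of the 334 at the adjusted threshold of 0.05. It called 0% of all sites as higher in subfertile cows. At an unadjusted p under 0.05 limma gave 263 of the 334, against 27.4% of all sites in that direction. The smallest limma adjusted p among them was 0.0659, shared by several sites that include both strands of a CpG near IFN-tau-c1. On plain percent values limma called 6 of the 334, against 0.262% of all sites (568 of 216,990) in that direction. The fit uses the contrast that chose the sites, so these counts only describe them.

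Position was not used by the rule beyond the limit to autosomes. Chromosome 8 held 124 of the 334 sites (37.1%), against 5.76% of all autosomal sites with 12 values and 7 of the 79 sites of the opposite rule (8.86%). Chromosome 22 followed with 24 sites (7.19%, against 3.76% of all sites), and each of the other autosomes held 3 to 10. On chromosome 8, 117 of the 124 lay from 14 to 26 Mb, bounds taken from an earlier look at these data. There they were 4.57% of 2,561 sites with 12 values, against 0.0938% in the rest of chromosome 8 and 0.127% of all sites outside the stretch. The opposite rule took 1 site in the stretch (0.0390%) and 78 elsewhere (0.0455%). Most windows of 1 Mb that held a site held a single one, namely 163 of 193, and outside chromosomes 8 and 22 no window held more than 3.

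**Figure D2:**
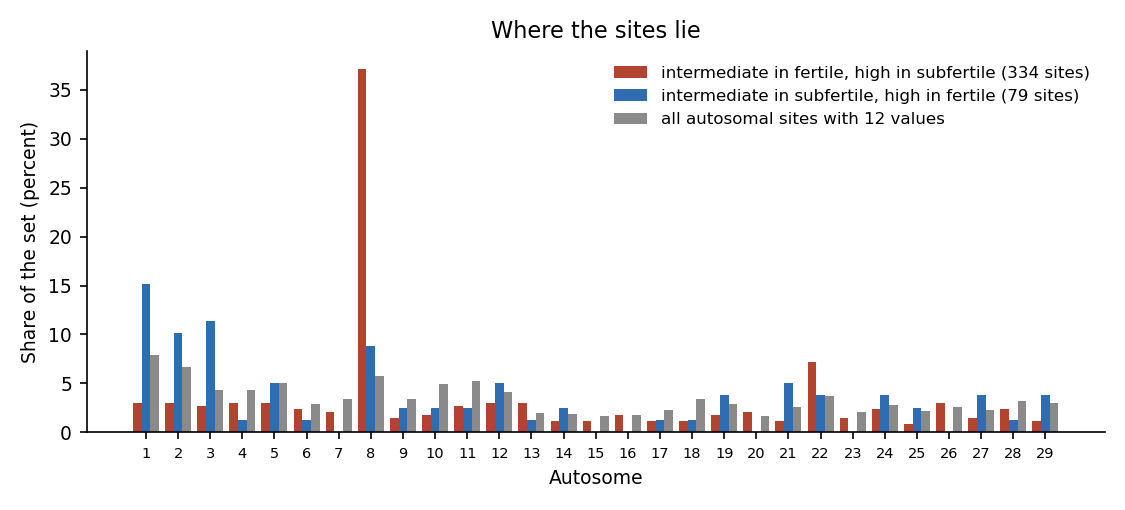
Share of each set (vertical axis, percent) on each autosome (horizontal axis) for the 334 sites, for the 79 sites of the opposite rule, and for all autosomal sites with 12 values. The bar of chromosome 8 for the 334 sites stands at 37.1%, against 8.86% for the opposite rule and 5.76% for all sites.

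The sites fell into 3 sets that differed in density and level. The stretch of chromosome 8 held 117 sites in 82 clusters (sites within 1 kb of the next joined), PDZRN3 on chromosome 22 held 15 sites in 6 clusters, and 202 sites elsewhere fell into 199 clusters. In the stretch, cow means over the sites were 92.5 ± 0.606% in subfertile and 46.4 ± 1.35% in fertile cows (SD, n = 6 each). In PDZRN3 they were 92.4 ± 1.14% and 45.2 ± 1.2%, and elsewhere 87.6 ± 0.630% and 52.9 ± 1.05%. The median gap between the lowest subfertile and the highest fertile cow was 21.2 points in the stretch, 21.0 in PDZRN3 and 8.11 elsewhere. A gap of at least 20 points was present at 66 of 117, 8 of 15 and 7 of 202 sites. The sites elsewhere thus lay closer to the limits of the rule, and these differences were not tested because the bounds of the sets were chosen with values known.

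**Figure D3:**
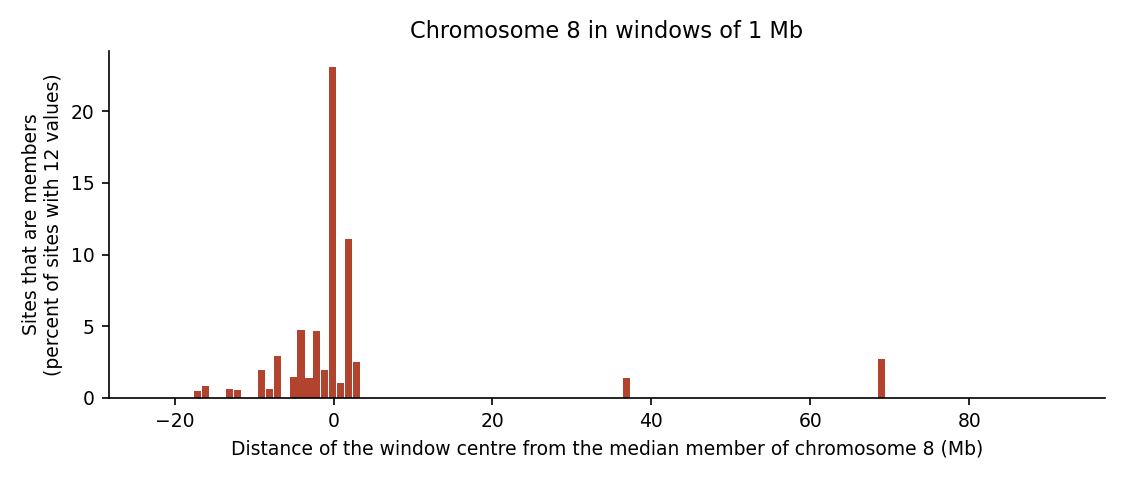
Share of sites with 12 values that follow the pattern (vertical axis, percent) in windows of 1 Mb along chromosome 8, against the distance of the window's centre from the median such site (horizontal axis, Mb). The tallest bars are the windows with 23.1% and 11.1% of their sites, and most windows far from the centre stand at 0.

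The densest window, from 22 to 23 Mb of chromosome 8, held 48 of the 334 sites among 208 with 12 values (23.1%). Cow means over these 48 sites ran from 92.0 through 93.1 to 94.5% in subfertile and from 43.7 through 46.5 to 50.1% in fertile cows. Next came 24 to 25 Mb with 25 of 225 sites (11.1%), 28 to 29 Mb of chromosome 22 with 15 of 270 (5.56%), and on chromosome 8 18 to 19 Mb with 13 of 275 (4.73%) and 20 to 21 Mb with 8 of 171 (4.68%). In these 5 windows the cow means averaged 92.4 to 93.4% in subfertile and 45.2 to 47.8% in fertile cows. The bounds of the rule hold these levels close together. Within the stretch the sites were not continuous: the window from 16 to 17 Mb held 0 of 303 and that from 23 to 24 Mb 2 of 198. The empty window does not mean that the other cows lacked the pattern there. With subfertile cow 1 left out, the rule did choose sites from 16 to 17 Mb. As the full rule took none of them, that cow had to be under 75% at each. Its highest value there was 69.2%.

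Type I interferon genes lay nearest to 34 sites, all on chromosome 8 from position 22,536,254 to 22,922,139 (build ARS-UCD1.2). Type I interferons are secreted antiviral proteins, and in ruminants interferon tau is the signal by which the embryo is recognised by its mother. These 34 sites were 8% of the 425 sites with 12 values whose nearest gene has interferon anywhere in its name. Those 425 were taken from all autosomes and were not limited to type I interferon genes. Cow means over them ran from 92.6 through 93.5 to 96.3% in subfertile and from 42.6 through 47.0 to 50.2% in fertile cows. IFNE, the interferon epsilon gene, whose product is made by the lining of the reproductive tract, was nearest to 8 sites, all distal intergenic and 5.35 to 19 kb from its transcription start. They averaged 94.6 ± 3.23% in subfertile and 46.6 ± 3.84% in fertile cows (SD, n = 6 each).

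Interferon tau genes followed with smaller numbers. IFN-tau-c1 was nearest to 7 sites (93.0 ± 3.49% in subfertile, 46.8 ± 5.48% in fertile cows), IFNT3 to 5 (93.5 ± 2.36% and 46.1 ± 4.55%) and IFNT2 to 2 (96.4 ± 3.44% and 55.2 ± 3.02%). LOC100299481, annotated as interferon omega-1, was nearest to 5 sites, of which 4 lay in its promoter (92.5 ± 3.55% and 45 ± 4.86% over all 5). LOC523244, LOC515485 and LOC618985 had 2 sites each and LOC781948 had 1. The shares of each gene's sites that followed the pattern were 7 of 16 for IFN-tau-c1, 5 of 12 for LOC100299481, 8 of 25 for IFNE and 5 of 20 for IFNT3. In the window from 22 to 23 Mb that holds them, 48 of 208 sites (23.1%) followed the pattern. Whether the shares of these genes differ from that of the window was not tested. The interferon tau genes are close copies of each other, as are the interferon omega genes, so which copy a read came from may be uncertain there, and this was not tested. No expression was measured.

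SLC24A2 held the most sites of any gene. It encodes a potassium-dependent sodium and calcium exchanger known from retina and brain. All 21 sites inside it lay in intron 1 of 10, from position 24,554,054 to 24,677,717 of chromosome 8. The nearest gene in the deposited table was SLC24A2 for 16 of them and a gene without a symbol for the other 5. Cow means over the 21 sites ran from 91.9 through 93.3 to 94.1% in subfertile and from 42.2 through 44.7 to 47.1% in fertile cows. At 24,675,714 the subfertile cows stood at 92.3% and, in the other 5, at 100%, while the fertile cows had 20, 21.4, 30, 36.4, 47.1 and 53.8%. That site had the highest difference of group means among the 334, 63.9 points. Among the 115 sites with 12 values inside the gene, 18.3% followed the pattern.

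Other genes of the chromosome 8 stretch were named as those with the nearest start, mostly for sites between genes. ELAVL2, a neuronal RNA-binding protein, was nearest to 7 sites that lay 465 to 652 kb from its start (93.6 ± 3.11% in subfertile, 46 ± 5.95% in fertile cows). DMRTA1, a transcription factor of the doublesex family, was nearest to 5 sites at 73.2 to 492 kb (90.4 ± 2.76% and 42.7 ± 6.51%). The microRNA gene MIR31 was nearest to 4 sites (90.3 ± 4.72% and 45.2 ± 2.72%), the closest of them 6.93 kb away. TUSC1, a tumour suppressor candidate, had 3 sites (94.6 ± 3.44% and 48.6 ± 4.91%). SAXO1, which encodes a protein that stabilises the microtubules of cilia, had 3, of which 1 lay in an intron of ADAMTSL1 and 1 in a 3′ untranslated region (91.4 ± 2.39% and 47.3 ± 4.16%). LOC101904667, annotated as a proton ATPase subunit-like gene, had 3 sites, 1 of them in its promoter (92.0 ± 4.40% and 50.2 ± 12%). Over all 60 sites with 12 values nearest to LOC101904667 the direction was the opposite, with averages of 43.1% in subfertile and 72.3% in fertile cows. Over all sites nearest to TUSC1 the averages were 43.0% and 41.8%, and over those nearest to ELAVL2 50.9% and 39.6%. At these distances a nearest gene only says where a site is.

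PDZRN3, which encodes a ubiquitin ligase with PDZ and RING domains, held 15 sites in intron 1 of 7 on chromosome 22, from position 28,223,281 to 28,252,165. Cow means over them ran from 90.6 through 92.7 to 93.8% in subfertile and from 44.0 through 45.2 to 47.2% in fertile cows. A cluster of 7 sites from 28,242,037 to 28,242,600 was the largest of all clusters (93.3 ± 2.01% and 44.0 ± 4.68%). At 28,242,437 the subfertile cows had 91.7, 91.7, 92.9, 93.3, 100 and 100% and the fertile cows 22.2, 23.5, 33.3, 45.5, 45.5 and 47.1%. At 28,223,282 the fertile cows had 40.9, 42.1, 43.8, 47.6, 50 and 50%, the smallest SD between fertile cows of all 334 sites (4.01 points), and the subfertile cows 81.2 to 100%. Another 28 sites with 12 values lay between the first and the last of the 15. All 28 were higher in subfertile cows on average, against 52.1% of all autosomal sites, but they missed the bounds of the rule. Of the 28, 11 separated the groups, against 1.72% of all autosomal sites with 12 values. The 28 were taken for lying among sites chosen for this direction, so these counts only describe them. The 15 were 5.58% of the 269 sites nearest to PDZRN3, which averaged 51.6% in subfertile and 53.5% in fertile cows. The direction thus did not extend over the sites nearest to the gene. Of sites with 12 values, 133 were annotated inside PDZRN3, and their levels were not averaged separately.

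The remaining 202 sites were spread over all 29 autosomes, nearly always alone. The densest was a set of 3 in the single intron of LHFPL3 on chromosome 4, from 46,055,254 to 46,075,961, named after its values were seen. It had cow means of 89.5 through 90.5 to 100% in subfertile and 43.6 through 48.6 to 55.7% in fertile cows. Pairs of sites nearest to the same gene, also named after their values were seen, lay at several genes. DNAH9, an axonemal dynein, had 85.0 ± 5.67% in subfertile and 52.3 ± 13.6% in fertile cows. PPFIA2, which encodes a liprin of synapses, had 83.4 ± 4.37% and 52.8 ± 11.2%. MAT1A, an enzyme that makes the methyl donor S-adenosylmethionine, had a site in an intron and 1 outside the gene (85.8 ± 6.46% and 49.4 ± 14.1%). The fertile cows of DNAH9 and MAT1A thus differed more among themselves than those of the chromosome 8 genes, where the SD over a gene's sites was 2.72 to 6.51 points for 10 of the 11 genes with most sites. It was larger at LOC101904667 (12 points) and at LOC523244, a chromosome 8 gene with a pair of sites (8.73 points). Other pairs of chromosome 8 sites, near IFNT2, ELAVL2, IFN-tau-c1 and DMRTA1, had 3.02, 8.01, 9.97 and 10.5 points. The pairs elsewhere ran from 8.63 points at LOC512119 to 19.9 at LOC112449440. Pairs average over fewer sites than most of the genes with most sites, so the contrast with those genes is not like for like. The difference was not tested.

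Some single sites stood out for fertile cows that lay close together. At a site 70.9 kb from ACAA2, an enzyme of mitochondrial fatty acid oxidation, the fertile cows had 50 to 62.5% and the subfertile cows 75 to 94.4%. At 18,634,558 of chromosome 8, 58.2 kb from TUSC1, they had 45.5 to 57.1%, against 93.8 to 100% in subfertile cows. IFNT2 had such a site at 22,600,041 (85.4 to 100% in subfertile, 51.2 to 62.5% in fertile cows) and IFNT3 at 22,587,061 (80 to 100% and 34.4 to 51.2%). LOC112447919, annotated as a small nucleolar RNA gene of chromosome 8 outside the stretch, had one at 12.7 kb. With PDZRN3 above, the remaining 4 of these 10 sites lay nearest to genes without a symbol, on chromosomes 1, 2, 8 and 16.

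By annotation class, the 334 sites were 61.4% distal intergenic, 32.9% intronic and 4.19% in promoters, against 57.2, 35.8 and 5.45% of all autosomal sites with 12 values. The opposite rule gave 63.3, 29.1 and 7.59%. Of the 110 intronic sites, 53 (48.2%) lay in intron 1, against 25.2% of all intronic sites, and 36 of the 53 were those of SLC24A2 and PDZRN3. The median distance to a transcription start was 71.1 kb, against 44.3 kb for all sites, and 135 sites (40.4%, against 30%) lay more than 100 kb away. On chromosome 8 alone the median was 41.4 kb, against 60.5 kb for all sites of that chromosome, so the order turned there. These shares were not tested.

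Promoters held 14 sites, within 3 kb of a start, of which 7 lay in the chromosome 8 stretch. The largest differences among them were at LOC100299481, LOC781948 and OR6B17. In the LOC100299481 promoter, at 22,674,556 and 359 bases from the start, the subfertile cows had 83.3, 86.7, 92.9, 100, 100 and 100% and the fertile cows 23.1, 31.2, 33.3, 35.7, 46.7 and 61.5%. LOC781948, another interferon omega gene, had 92.9 to 100% in subfertile and 38.5 to 70% in fertile cows at 22,825,760. IFN-tau-c1 had 75 to 93.3% and 31.2 to 61.5% at 22,633,971, 0.078 kb from its start.

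Outside chromosome 8, promoter sites lay at OR6B17 (an olfactory receptor gene), CACUL1, IGHG1, MYLK4, CCDC60 and C9H6orf120. OR6B17 had 85.8 ± 8.35% in subfertile and 43.7 ± 19% in fertile cows, with fertile cow 1 at 75% and the other fertile cows from 27.3 to 57.1%. CACUL1, a regulator of the cell cycle kinase CDK2, carried the pattern on both strands of a CpG 614 and 615 bases from its start, with 86.2 ± 6.5% and 48.6 ± 13.7% over the pair. IGHG1, as the deposited annotation names a constant region gene of immunoglobulin G, had 93.6 ± 5.64% and 56.3 ± 19%. MYLK4, a myosin light chain kinase gene, had 87.1 ± 6.40% and 54.2 ± 20.1%, CCDC60 88.5 ± 8.98% and 55.8 ± 8.81%, and C9H6orf120 87.8 ± 7.14% and 59.5 ± 9.76%.

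Exons held 3 sites and 3′ untranslated regions 2. An exon site in SART3, a factor of spliceosome recycling, had 88.4 ± 8.35% in subfertile and 56.3 ± 7.42% in fertile cows. A second lay in an exon of WDR64 (91.9 ± 6.78% and 59.8 ± 14.2%), although the nearest start is that of EXO1. The third, on chromosome 5, is in a gene named here only by its Ensembl identifier ENSBTAG00000000395 (89.6 ± 8.62% and 56.1 ± 13.5%). The untranslated region sites were nearest to SAXO1 (89.6 ± 6.83% and 45.0 ± 9.18%) and CD101, a leukocyte surface protein (89.4 ± 6.07% and 58.6 ± 6.87%). Their starts lay 131 and 13.6 kb away, and the gene that holds each untranslated region is not stated in the annotation.

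A set of 18 gene lists asked whether the sites gathered at genes of blood cells, immunity, reproduction or imprinting. Of 225 listed genes with a site, 6 (2.67%) were nearest to a site of the pattern, against 164 of 11,625 genes in all (1.41%), and 4 of the 6 were the interferon genes above. Among the type I interferon and response genes, IFNE, IFN-tau-c1, IFNT3 and IFNT2 held 22 of 168 sites, while the other genes of that list, among them the receptor gene IFNAR1, held none. HAND2, a transcription factor that responds to progesterone in the uterus of mouse, was nearest to 1 of the 154 sites of the endometrium and pregnancy list, 175 kb from its start (88.6 ± 7.10% in subfertile, 57.3 ± 16.7% in fertile cows). MAT1A gave the methionine and folate cycle list its 2 of 184.

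No site of the pattern was nearest to a gene of the other 15 lists. This was 0 of 135 sites at imprinted genes, 0 of 136 at T cell, 0 of 95 at B cell, 0 of 58 at natural killer cell, 0 of 49 at monocyte, 0 of 41 at neutrophil, 0 of 17 at erythroid and 0 of 104 at platelet genes. It was also 0 of 254 at cytokine and chemokine, 0 of 141 at pattern recognition, 0 of 15 at antigen presentation, 0 of 233 at steroid and gonadotropin, 0 of 195 at insulin, growth hormone and metabolism, 0 of 199 at DNA methylation machinery and 0 of 150 at glucocorticoid stress genes. With 0.192% of all sites following the pattern, lists of this size would hold few or none in any case. Cell type cannot be checked from marker genes in these data, which hold no expression.

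The opposite strand offers a second reading of the same CpG. For 151 of the 334 sites the partner cytosine was deposited, and in 60 cases it followed the pattern too, which makes 30 CpGs with both strands. At these 30 CpGs a cow's value differed between strands by a median of 6.25 points in subfertile and 11.9 points in fertile cows. The group means differed between strands by medians of 3.44 and 3.26 points. All 91 partners that missed the rule were also higher in subfertile cows, with median levels of 89.5% in subfertile and 48.0% in fertile cows. They missed it for a fertile value outside 15 to 75% (54), a subfertile value under 75% (40), a missing value (28) or other bounds, some for several of these. The difference was the basis of deposition, so the direction of a deposited partner is not independent.

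Neighbours within 1 kb that were deposited but not of the pattern numbered 333. Of these 80.5% were higher in subfertile cows, against 52.1% of all autosomal sites, with median levels of 83.2% in subfertile and 47.4% in fertile cows. In the chromosome 8 stretch 114 of 152 neighbours (75%) were higher in subfertile cows. There 71 (46.7%) separated the groups in that direction, against 1.72% of all autosomal sites with 12 values. Outside the stretch, with PDZRN3 included, 154 of 181 (85.1%) were higher and 32 (17.7%) separated the groups. Only 118 of the 152 and 151 of the 181 neighbours had 12 values, so these shares and the 1.72% are not strictly alike. The neighbours were taken for lying near sites chosen for this direction, and opposite-strand partners also lie within 1 kb. Their counts thus only describe them and are no separate support for the direction. The other 38 neighbours in the stretch were not higher in subfertile cows, so sites of both kinds lie side by side there. No deposited site lay within 1 kb of 134 of the 334 sites.

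A reading in cows that did not choose the sites was made by applying the rule to 11 cows and taking the level of the cow left out. It was added after the values were seen, and the authors had selected the deposited sites on all 12 cows, so it is not fully independent. In the chromosome 8 stretch, 118 to 163 sites were chosen each time. There the left-out subfertile cow had a median of 90 to 93.8% and the left-out fertile cow a median of 45.5 to 50%. In PDZRN3, with 14 to 17 sites, the medians were 91.7 to 100% and 43.6 to 50%. Elsewhere, with 272 to 402 sites, they were 78.9 to 84.6% and 68.4 to 75%.

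The 6 left-out fertile cows thus stood near the middle in the stretch and in PDZRN3, and well above it elsewhere, with no overlap between these ranges. The stretch and PDZRN3 were themselves set apart with the values of every cow known, so each left-out cow had helped to choose these places. The contrast with the sites elsewhere was therefore partly set in advance, and nothing is concluded from it. How much of it comes from that choice was not tested. The share of sites at which a left-out fertile cow fell within 15 to 75% was 87.3 to 96.6% in the stretch and 46.8 to 57.0% elsewhere. For a left-out subfertile cow at or above 75%, it was 70.6 to 97.5% and 60.7 to 74.3%.

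**Figure D4:**
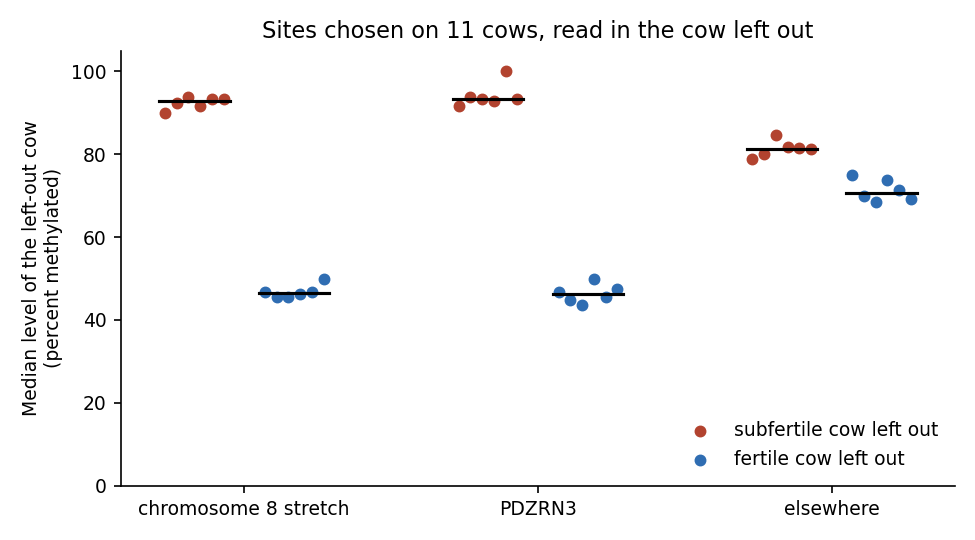
Median level of a cow (vertical axis, percent methylated) over sites chosen by the rule on the other 11 cows, for the chromosome 8 stretch from 14 to 26 Mb, for PDZRN3 and elsewhere; each point is 1 left-out cow and bars are medians of 6 cows. Left-out fertile cows stand at 45.5 to 50% in the stretch and at 68.4 to 75% elsewhere.

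Subfertile cow 1 was the exception within the stretch, with 115 of 163 left-out sites at or above 75%. Between 14 and 17 Mb, a range picked with these values in view, the other 11 cows chose 47 sites when it was left out, against 5 or 6 when any other cow was. At these 47 sites subfertile cow 1 had a median of 50% and a mean of 48.2%, with 42 values under 75%. Any site chosen without this cow that the full rule did not take has to have it under 75%. Being under 75% at those sites is therefore set by the choice, while the level it had under that bound is not. The other subfertile cows averaged 89.5 to 93.1% and the fertile cows 41.4 to 47.4% there. From 17 to 26 Mb the same cow had a median of 92.9% over 116 sites, with 6 under 75%. Its mean from 14 to 17 Mb lay just above that of the highest fertile cow and far below those of the other subfertile cows, and its mean from 17 to 26 Mb lay among those of the other subfertile cows.

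**Figure D5:**
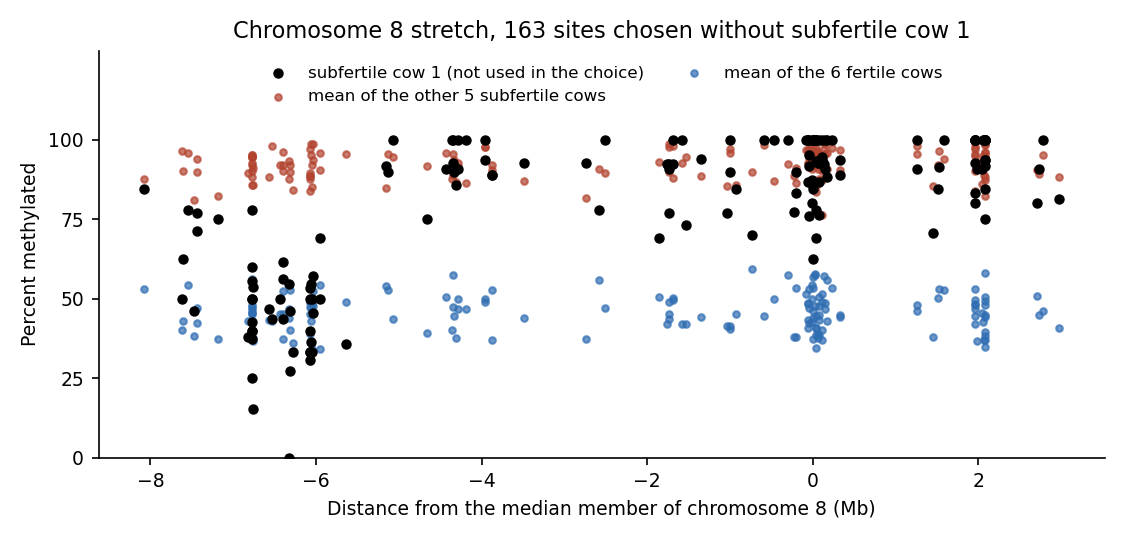
Percent methylated (vertical axis) at the 163 sites of the chromosome 8 stretch that the rule chose without subfertile cow 1, against the distance from the median site of the pattern (horizontal axis, Mb). Black points are subfertile cow 1, red points the mean of the other 5 subfertile cows and blue points the mean of the 6 fertile cows; the black points lie mostly among the blue ones at the left end and among the red ones elsewhere.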

How the data were processed

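DNA from the blood of 12 cows went through enzymatic conversion, which turns unmodified cytosines into uracils, per the labels' protocols. Listed per the submitters' processing notes are ARS-UCD1.2 as build, Bismark and DRAGEN, fastp 0.23.1, and ChIPseeker 1.32.1. The deposited table gives per cytosine and cow the percent of methylated calls, with the authors' difference score in percentage points, p-value and q-value, per the file headers. Its distance to the nearest start is a signed score in bases, as deposited. Neither the authors' test nor the read minimum is stated in these sources (not given in the sources used here). Read counts are not held, so the depth of each value is unknown and no interval is given. All deposited sites had an absolute difference above 25 points and a q-value under 0.01, by the authors, so the table is a selected part of the genome.

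The members, gene lists and tests were chosen with earlier results of these data known. Named genes followed a written rule: the 12 with most sites, the promoter, exon and untranslated region sites with the largest differences, the 10 largest clusters, the 10 sites with the smallest fertile SD, up to 4 genes per list and the 5 densest windows of 1 Mb. Gene symbols are those of the nearest gene in the deposited table. For 41 of 113 intron and exon sites the gene that holds the site was another, and where it is named its symbol came from the deposited table or from RefSeq names. Limma 3.58.1 in R 4.3.3 was fitted to log2 of (percent + 5)/(100 − percent + 5), in a model of group alone, with p-values adjusted over all sites by Benjamini-Hochberg, and was tested on simulated data. Other bounds, cluster distances, limma scales and leaving out each cow were tried as alternatives, and the reading in a left-out cow was added after the values were seen. All 12 cow columns were matched to samples by cow number, and group came from the samples' labels. Nothing in the labels pairs cows, and limma's p-values set the group difference against the spread between these cows. Whether the authors' q-values do so is not known, as their test is not stated. No sequences are printed because no genome of this build was used here.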

Additional observations from a re-analysis of the deposited data

Results flagged for a closer look

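A cow stood apart from the other 5 of its group in 8 of 106 groups of cows examined (by the gap to the nearest cow relative to the range of the group). For independent values without bounds, chance flags about 1 in 20. Here the rule cut the values and many of the groups share sites, so the count cannot be compared with that rate. Several flagged values lay exactly at 75 or 100%, where the rule or the scale ends. Over the 202 sites outside the chromosome 8 stretch and PDZRN3, subfertile cow 3 was highest with a mean of 88.7%, and the next cow had 87.6%. Subfertile cow 6 was highest at the LOC523244 pair (100%, next 93.3%) and lowest at MYLK4 (75%, next 85.7%) and at a site near a gene without a symbol on chromosome 1 (75%, next 87.5%). Subfertile cow 1 was lowest at the IFNT2 site at 22,600,041 (85.4%, next 96.6%). Among fertile cows, cow 1 was lowest over the 5 sites of IFNT3 (37.3%, next 45.9%), cow 4 over the 3 sites of LOC101904667 (26.9%, next 50.1%) and cow 5 at the exon site of chromosome 5 (30%, next 53.3%).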

How the results depend on the processing

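The number of sites depended on the bounds. With a fertile mean of 35 to 55% and every fertile value from 25 to 65%, 87 sites were left, with 59.8% on chromosome 8. With every subfertile value at least 70% there were 532, and at least 80% 154, with 53.9% on chromosome 8. Counted by clusters, chromosome 8 held 31.0%. Leaving out 1 cow at a time gave 412 to 543 sites, most without fertile cow 4, in 362 to 452 clusters, with 24.4 to 34.3% on chromosome 8 and 59.2 to 66.1% distal intergenic. The number of sites rose by over 1.5 times without subfertile cow 1 (510) and without fertile cows 1 (528), 2 (508), 4 (543) and 5 (519). The number of clusters did so without fertile cows 1 (440), 2 (435), 4 (452) and 5 (451). Fewer cows had to meet the bounds in every such run, and why the rise was larger without some cows was not tested. Limma called 0 sites without any 1 cow, and 6 on plain percent values (0.262% of all sites). Keeping rows with missing values, sites with all subfertile values at 100%, or X and unplaced scaffolds gave 442, 338 and 346 sites, and counting both strands once gave 304. Joining sites within 500 bases or 5 kb gave 293 and 263 clusters. The share on chromosome 8 (37.1%, exact 95% interval 31.9 to 42.6%) left its interval under those tighter bounds, by clusters and without most single cows, and was lowest without fertile cow 1 (24.4%), over 1.5 times below. The distal intergenic share stayed within its exact 95% interval under the other bounds, by clusters, and, added after seeing the data, without the stretch and PDZRN3 (62.9%). Both intervals treat the sites as independent draws, although neighbouring sites are not independent and all sites come from the same cows. They do not measure the spread between cows and serve here only as a mark for change. No paired analysis was possible because the labels give no replicate numbers that groups share. Depth is unknown, so how far few reads per value spread single cows is not known here.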
